A study of Homo sapiens with 12 samples.

Results

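RNA levels of 8 genes that are recurrently altered in pancreatic ductal adenocarcinoma (PDAC) were followed in PDAC cell lines: CDKN2A, CDKN2B, MTAP, SMAD4, TGFBR2, ARID1A, RNF43 and MYC. They were taken by gene symbol from tables of 48114 loci, and each symbol matched 1 locus. Poly(A) RNA-seq was available for 12 libraries in 4 groups of 3. PANC-1 cells, an established PDAC line used as a model of the basal-like subtype, had been transfected for 48 h with a control siRNA (siCtrl) or with 40 nM siRNA against the splicing factors QKI (siQKI) or RBFOX2 (siRBFOX2). HPAF-II cells, an established line of the classical subtype, had received siCtrl for 48 h. Each subtype was therefore represented by 1 line, and no label said whether the 3 libraries of a group came from separate cultures, so that p-values measure the spread between these libraries, which may be technical.

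Most of these genes are tumour suppressors. CDKN2A and CDKN2B lie side by side on the short arm of chromosome 9 (band 9p21) and encode the CDK inhibitors p16 and p15, and CDKN2A also encodes p14ARF, which acts on MDM2 and p53. Deletion of this region is frequent in PDAC and often reaches MTAP, a neighbouring gene for an enzyme that recycles methionine. TGFBR2 is a receptor and SMAD4 the shared signal transducer of the TGF-beta pathway, ARID1A is a subunit of SWI/SNF chromatin remodelling complexes, RNF43 removes WNT receptors from the cell surface, and MYC is a growth-promoting transcription factor.

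Values are normalized counts as deposited, that is, counts of each library divided by 1 size factor, which ranged from 0.877 to 1.15 over the PANC-1 libraries and from 0.810 to 1.09 over those of HPAF-II. The counting unit was not a sequenced fragment, so depth in fragments is unknown and no counting interval is given. Both lines were normalized apart. Levels compared between lines were therefore rescaled to a total of 1000000 per library (rescaled counts) and described without a test. The targeted genes were lower as labelled. In siQKI cells QKI was at 5034 ± 412 normalized counts against 25533 ± 869 in siCtrl cells (mean ± SD, n = 3 each). In siRBFOX2 cells RBFOX2 was at 2095 ± 352 against 15429 ± 76.8. Keratins KRT8, KRT18 and KRT19 were present in both lines. The epithelial markers EPCAM and CDH1 were far lower in PANC-1 libraries (12.4 to 14.2 and 2.80 to 9.08 rescaled counts) than in HPAF-II libraries (327 to 487 and 162 to 220). VIM, an intermediate filament of mesenchymal cells, ranged from 5066 to 5499 rescaled counts over PANC-1 libraries and from 0.283 to 15.2 over HPAF-II libraries. The mesenchymal markers ZEB1 and CDH2 had 23.5 to 33.5 and 37.3 to 51.0 in PANC-1 libraries. In HPAF-II libraries ZEB1 had 0.791 to 1.44 and CDH2 was at 0. The 5 markers of immune, endothelial, acinar, endocrine and fibroblast cells (PTPRC, PECAM1, PRSS1, INS and COL3A1) summed to at most 0.654 rescaled counts in a library.

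The clearest feature of these genes was the absence of CDKN2A and CDKN2B transcripts from PANC-1 cells. Both were listed at 0 in all 9 PANC-1 libraries, whichever siRNA was used. In HPAF-II siCtrl cells, CDKN2A had 29994, 29287 and 43329 normalized counts, and CDKN2B had 22824, 36271 and 26347. The lines did not overlap for either gene, and no fold is given because 1 side was at 0. Among 4518 autosomal loci that averaged 10000 normalized counts or more in HPAF-II cells, 5 (0.111%) were at 0 in all 9 PANC-1 libraries: CDKN2A, CDKN2B, CCAT1, EPS8L3 and KLK11. With an average of 10 as the minimum the share was 2.35%. The minimum of 10000 was not planned. CDKN2A and CDKN2B passed either minimum only through their HPAF-II levels, so the shares describe their absence and do not test it.

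CDKN2A (locus 9:21967752-21995324 in hg38) and CDKN2B (9:22002903-22009313) were part of a longer silent stretch. In chromosome order, 10 consecutive loci between 21858914 and 22121095, a span of 262 kb, were at 0 in every PANC-1 library. They comprised, from the telomeric end, 3 unnamed loci inside the annotated MTAP gene, CDKN2A-DT, CDKN2A, 3 unnamed loci inside CDKN2A, CDKN2B-AS1 (ANRIL, a long non-coding RNA antisense to CDKN2B) and CDKN2B. Of these 10 loci, 7 were above 0 in all 3 HPAF-II libraries and 8 had a mean of at least 10 there. CDKN2B-AS1 had 411, 384 and 440 normalized counts in HPAF-II cells. CDKN2A-DT was at 0 in both lines and so does not distinguish them. The strand setting of the authors' counting is not given in the sources used here, so reads of CDKN2A, CDKN2B and the antisense loci that overlap them could not be told apart.

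The genes on both sides of this stretch were expressed in PANC-1 cells. DMRTA1, a transcription factor gene and the next locus, 326 kb away, averaged 1010 normalized counts over the 9 PANC-1 libraries. On the other side, MTAP averaged 2317 and KLHL9, a ubiquitin ligase adaptor gene, 5916. The first locus at 0 began 56.3 kb after the start of MTAP, and a short unnamed locus in an MTAP intron before that point was above 0 in 8 of 9 PANC-1 libraries. The 10 silent loci thus began within the MTAP gene, and MTAP itself was expressed. Gene totals do not show which MTAP exons the reads came from.

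**Figure D1:**
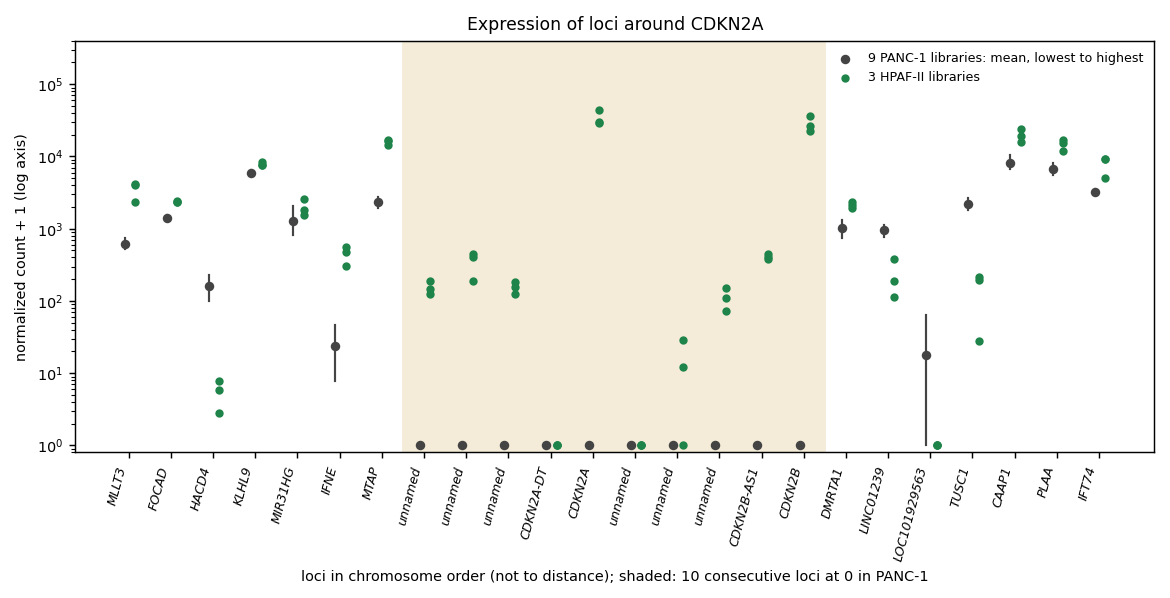
Normalized counts plus 1 (log axis) of loci around CDKN2A in chromosome order, spaced evenly and not by distance. Black points and lines give the mean and range of 9 PANC-1 libraries, green points the 3 HPAF-II libraries, and the shaded band the 10 consecutive loci at 0 in every PANC-1 library; outside the band, loci with a symbol and a mean of at least 10 in either line are drawn.

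Runs of neighbouring loci of this kind were uncommon in PANC-1 cells. Over the autosomes, loci with a mean of at least 10 in HPAF-II cells were read in chromosome order for unbroken runs at 0 in all 9 PANC-1 libraries. The run at CDKN2A was the longest, with 8 loci, and 5 runs held 4 or more. No locus of the other 4 averaged more than 623 normalized counts in HPAF-II cells. In the opposite direction, 37 runs of 4 or more loci were at 0 in HPAF-II and present in PANC-1 cells, up to 75 loci in a row. RNA levels do not measure DNA copy number, and a deleted gene and a silenced one cannot be told apart here.

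Other genes of the region, from MLLT3 to IFT74, differed between the lines in both directions. The 24 listed neighbours include CDKN2B-AS1 and CDKN2A-DT, which belong to the silent stretch, and 12 of the 24 reached a mean of 10 in a line. Of these 12, 8 were at least 2-fold higher and 2 at least 2-fold lower in HPAF-II cells, beside 26.1% and 27.1% of all genes compared. CDKN2B-AS1 is among the 8 and, being at 0 in PANC-1 cells, reached the minimum only through HPAF-II cells. The log2 ratio, taken with 0.01 added to each rescaled count, was 4.50 for IFNE, an epithelial interferon, and 2.89 for MLLT3, a component of transcription elongation complexes. HACD4, a fatty acid elongation enzyme, and TUSC1 were lower in HPAF-II cells by log2 ratios of -4.24 and -4.01. HACD4 averaged 4.55 normalized counts there and reached the minimum only through PANC-1 cells. IFNE had 0.0622 rescaled counts in PANC-1 siCtrl cells and HACD4 0.0160 in HPAF-II cells. The ratios of IFNE and HACD4 therefore depend on the 0.01 added. On knockdown, 2 of 11 tested neighbours fell in siQKI cells, or 4 with upper quartile rescaling, and 3 in siRBFOX2 cells, beside 33.0% and 26.5% of all genes tested that passed in either direction. MIR31HG, the host transcript of miR-31, fell by 0.88 and 1.06 on the log2 scale (limma adjusted p = 1.27e-05 and 4.01e-06).

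The 250 bases before the annotated starts of the 9p21 genes are shown because they place these genes against the silent stretch: the starts of CDKN2A and CDKN2B lie inside it and that of MTAP outside. The sequences are from RefSeq on GRCh38.p14, written 5′ to 3′ on the strand of the gene, with matches to the GC box (GGGCGG, or CCGCCC on the other strand) in capitals. The first CDKN2A start is that of the p16 transcript (chr9:21974858-21975107, minus strand), the second that of p14ARF (chr9:21995325-21995574, minus strand). CDKN2B is at chr9:22009306-22009555 on the minus strand and MTAP at chr9:21802386-21802635 on the plus strand.
CDKN2A, p16 start: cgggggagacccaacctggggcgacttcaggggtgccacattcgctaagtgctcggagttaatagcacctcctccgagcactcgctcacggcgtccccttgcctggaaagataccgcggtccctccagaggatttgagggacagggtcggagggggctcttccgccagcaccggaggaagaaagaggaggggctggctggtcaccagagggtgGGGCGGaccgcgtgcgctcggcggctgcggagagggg
CDKN2A, p14ARF start: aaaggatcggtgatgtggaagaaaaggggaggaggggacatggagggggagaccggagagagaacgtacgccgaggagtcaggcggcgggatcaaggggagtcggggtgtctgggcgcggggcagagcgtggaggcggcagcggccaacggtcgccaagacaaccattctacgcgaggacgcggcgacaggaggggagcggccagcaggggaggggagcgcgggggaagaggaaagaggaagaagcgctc
CDKN2B: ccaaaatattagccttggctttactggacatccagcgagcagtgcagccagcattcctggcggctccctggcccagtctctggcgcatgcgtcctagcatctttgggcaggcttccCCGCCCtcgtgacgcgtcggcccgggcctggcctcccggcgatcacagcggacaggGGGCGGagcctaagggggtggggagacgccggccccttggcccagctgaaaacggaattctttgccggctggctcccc
MTAP: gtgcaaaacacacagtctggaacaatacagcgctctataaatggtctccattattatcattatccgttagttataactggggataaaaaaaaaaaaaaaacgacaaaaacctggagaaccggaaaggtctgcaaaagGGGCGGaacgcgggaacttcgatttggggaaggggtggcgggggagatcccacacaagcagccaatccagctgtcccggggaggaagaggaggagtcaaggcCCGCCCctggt
The p16, CDKN2B and MTAP sequences held 1, 2 and 2 GC boxes and the p14ARF sequence held none, while 42.5% of 34943 RefSeq promoters of the same length held at least 1. They contained 20, 18, 11 and 24 CpG dinucleotides in the order p16, CDKN2B, MTAP and p14ARF, against a median of 11. Only the MTAP sequence held TATAAA, present in 10.8% of promoters. These matches describe the letters only.

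MTAP, encoding the enzyme that cleaves methylthioadenosine in the methionine salvage pathway, was low in PANC-1 cells and rose in 1 knockdown. It had 1960, 2224 and 2023 normalized counts in siCtrl, 2282, 2112 and 2469 in siQKI, and 2468, 2766 and 2552 in siRBFOX2 libraries. All siRBFOX2 libraries lay above all siCtrl libraries, and the siQKI libraries overlapped with them. The increase was 25.5% in siRBFOX2 cells (log2 fold change 0.33, SE 0.085, adjusted p = 0.00998) and the value in siQKI cells was 0.14 (adjusted p = 0.228). The difference between the knockdowns did not pass the test (-0.18, 95% interval -0.37 to -0.000599, adjusted p = 0.155). In rescaled counts MTAP reached 55.9 ± 4.43 in HPAF-II cells and 6.01 ± 0.328 under siCtrl in PANC-1 cells, a 9.28-fold difference.

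TGFBR2, the receptor that binds TGF-beta and activates TGFBR1, showed the largest change of the 6 genes tested in both knockdowns. It had 37068, 39607 and 40390 normalized counts in siCtrl cells. These fell to 26858, 25015 and 24434 in siQKI cells and to 23360, 24063 and 22944 in siRBFOX2 cells. No library of either knockdown reached the lowest control. TGFBR2 fell by 34.8% in siQKI (log2 fold change -0.62, SE 0.046, adjusted p = 1.12e-07) and by 39.9% in siRBFOX2 cells (-0.73, adjusted p = 4.57e-08), both against the same siCtrl libraries. The siQKI and siRBFOX2 libraries did not overlap, but their difference of 0.12 (95% interval 0.02 to 0.22) had an adjusted p of 0.0939. HPAF-II cells had 316 ± 19.2 rescaled counts of TGFBR2 against 113 ± 3.80 in PANC-1 siCtrl cells, a 2.78-fold difference.

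SMAD4, which carries the signal of the activated receptors into the nucleus, moved little. It had 5350, 6005 and 6292 normalized counts in siCtrl, 5446, 5736 and 5411 in siQKI, and 5092, 5280 and 5052 in siRBFOX2 libraries. The lowest control lay just above the highest siRBFOX2 library. The decrease of 12.4% in siRBFOX2 cells passed the test (log2 fold change -0.19, SE 0.064, adjusted p = 0.0383), whereas siQKI cells had -0.09 (adjusted p = 0.349). The siRBFOX2 call was lost in 8 of 17 alternative fits, with adjusted p up to 0.169 when siCtrl replicate 3 was left out. It was also lost without siCtrl replicate 2 (0.114) and without siRBFOX2 replicate 1, 2 or 3 (0.0957, 0.0503 and 0.0949). Between the lines, SMAD4 was 1.37-fold higher in HPAF-II cells (23.5 ± 2.80 against 17.1 ± 1.22 rescaled counts), with no overlap of the libraries. This depended on the rescaling. As deposited, the HPAF-II libraries had 6624, 7515 and 5849 normalized counts and overlapped with PANC-1 siCtrl, and the log2 ratio was 0.18 instead of 0.45. SMAD4 transcripts were thus present in both lines.

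Other receptors and SMADs of the pathway changed in both directions. Of 17 tested, 5 rose and 3 fell in siQKI cells, and 4 rose and 3 fell in siRBFOX2 cells, beside 33.0% and 26.5% of all genes that passed. The medians were 0.17 and 0.06 on the log2 scale, and 0.03 and 0.01 over all genes. SMAD6, an inhibitory SMAD, rose by 0.87 in siQKI (adjusted p = 2.36e-06) and by 0.35 in siRBFOX2 cells (adjusted p = 0.00868). SKIL, a repressor of SMAD-driven transcription, rose by 0.55 and 0.28. TGFBR1, the partner receptor of TGFBR2, named here after its values were seen, rose by 0.28 in siQKI cells (adjusted p = 5.44e-04) and had -0.06 in siRBFOX2 cells (adjusted p = 0.483).

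Genes known to respond to TGF-beta differed between the knockdowns. In siQKI cells 5 of 12 rose and 4 fell, and in siRBFOX2 cells 1 rose and 7 fell, beside the same 33.0% and 26.5%. In the direct comparison, 9 were higher and 1 lower in siQKI than in siRBFOX2 cells, while 21.5% of all genes differed between the knockdowns. ID1 and ID2, inhibitors of basic helix-loop-helix factors, rose by 0.51 and 0.70 in siQKI cells and had -0.07 and -0.04 in siRBFOX2 cells (adjusted p = 0.336 and 0.753). Their differences between the knockdowns were 0.58 and 0.74 (adjusted p = 1.40e-06 and 5.74e-06). CCN2, a matricellular protein gene, fell by 0.51 in siQKI and by 0.90 in siRBFOX2 cells. Between the lines LTBP2, a latent TGF-beta binding protein, was lower in HPAF-II cells by a log2 ratio of -5.22, and ID2 was higher by 4.17.

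ARID1A was the member that set siQKI apart from siRBFOX2. It had 63060, 60582 and 60208 normalized counts in siCtrl, 68584, 70837 and 66511 in siQKI, and 62902, 60770 and 60750 in siRBFOX2 libraries. Every siQKI library lay above every other PANC-1 library. ARID1A rose by 12.0% in siQKI cells (log2 fold change 0.16, SE 0.038, adjusted p = 0.00324), had 0.00 in siRBFOX2 cells (95% interval -0.08 to 0.08, adjusted p = 0.950), and differed between the knockdowns by 0.16 (adjusted p = 0.00632, or 0.0549 without the mean-variance trend). It was also the only member with a lower level in HPAF-II cells, at 108 ± 21.9 rescaled counts against 178 ± 6.89, a 1.67-fold difference without overlap. HPAF-II replicate 3 had the lowest of these values, 83.3.

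Among the other 25 SWI/SNF subunits tested, 2 rose and 7 fell in siQKI, and 7 fell in siRBFOX2 cells, close to the shares over all genes in these comparisons (33.0% and 26.5%). BCL7A fell by 0.89 and SMARCD1 by 0.60 in siQKI cells, and BCL7B by 0.51 in siQKI and by 0.73 in siRBFOX2 cells. Between the lines, 3 of the 25 were at least 2-fold higher and 5 lower in HPAF-II cells, beside 26.1% and 27.1% of all genes. SMARCA4, which encodes BRG1, a catalytic subunit, had 15.8 ± 1.61 rescaled counts in PANC-1 siCtrl and 206 ± 10.3 in HPAF-II cells, a log2 ratio of 3.71. In PANC-1 cells SMARCA4 had 5950, 5010 and 5331 normalized counts under siCtrl and was no higher than 5950 in any library. DPF1, a subunit of the neuronal form of the complex, and SMARCD3 went the other way by more, with log2 ratios of -6.17 and -4.90.

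RNF43, the ubiquitin ligase that removes Frizzled receptors, was low in PANC-1 cells and varied between libraries. It had 794, 855 and 773 normalized counts in siCtrl, 1373, 938 and 830 in siQKI, and 759, 1200 and 901 in siRBFOX2 libraries. A single library was high in each knockdown, siQKI replicate 1 and siRBFOX2 replicate 2, and both groups overlapped with the controls. RNF43 overlaps the antisense locus TSPOAP1-AS1, and without the strand of counting their reads could not be told apart. Neither change passed the test (0.34, 95% interval -0.05 to 0.74, adjusted p = 0.183, and 0.22, interval -0.18 to 0.61, adjusted p = 0.451). HPAF-II cells had 24.0 ± 4.35 rescaled counts of RNF43 and PANC-1 siCtrl cells 2.34 ± 0.108, a 10.1-fold difference.

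Genes around RNF43 in WNT receptor turnover (Frizzled and LRP receptors, LGR receptors, R-spondins and ZNRF3) rose more often than they fell in siQKI cells. Of 17 tested, 10 rose and 1 fell, where 14.9% of all genes rose, and the median was 0.27. In siRBFOX2 cells 4 rose and 1 fell, 5 of 17 beside 26.5% of all genes, with a median of 0.23. LGR5, a receptor for R-spondins, rose from 102, 109 and 35.2 to 279, 164 and 294 normalized counts in siQKI (log2 fold change 1.69, adjusted p = 0.0128) and to 284, 484 and 137 in siRBFOX2 cells (1.85, adjusted p = 0.00930). Its low count in siCtrl replicate 3 weighed on the first value, which was 1.17 (adjusted p = 0.0677) without that library and 1.54 (adjusted p = 0.0526) without siQKI replicate 3. The second had an adjusted p of 0.0586 without siRBFOX2 replicate 2. In HPAF-II cells LGR5 and LGR6 were higher, by log2 ratios of 4.63 and 9.22, and FZD2 was lower (-4.96). LGR6 had 0.0894 ± 0.0879 rescaled counts in PANC-1 siCtrl cells, so the size of its ratio depends on the 0.01 added.

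Of 7 transcriptional targets of WNT signalling, none passed the limma test in siQKI cells, where 1 had an unadjusted p under 0.05, and 1 did in siRBFOX2 cells, beside 33.0% and 26.5% of all genes. That gene was AXIN2, a feedback inhibitor, with 588, 578 and 394 normalized counts in siCtrl and 961, 998 and 594 in siRBFOX2 libraries (log2 fold change 0.69, adjusted p = 0.0241). The adjusted p of AXIN2 was 0.120 without siCtrl replicate 3, 0.0997 without siRBFOX2 replicate 1 and 0.109 without siRBFOX2 replicate 2. Between the lines NKD1 and SP5 were higher in HPAF-II cells (3.37 and 2.18) and TNFRSF19 lower (-5.82). TNFRSF19 had 0.00969 ± 0.0168 rescaled counts in HPAF-II and 0.896 ± 0.195 in PANC-1 siCtrl cells. The size of its ratio therefore depends on the 0.01 added.

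MYC decreased by nearly the same amount in both knockdowns. It had 76408, 76692 and 75787 normalized counts in siCtrl, 63966, 64185 and 61858 in siQKI, and 63400, 62596 and 65493 in siRBFOX2 libraries. Both knockdowns lay entirely below the controls and overlapped with each other. MYC fell by 17.0% in siQKI (log2 fold change -0.27, SE 0.035, adjusted p = 2.48e-05) and by 16.4% in siRBFOX2 cells (-0.26, adjusted p = 6.35e-05), against shared controls. The difference between them was -0.01, with a 95% interval of -0.09 to 0.06 (adjusted p = 0.875). HPAF-II cells had 598 ± 35.8 rescaled counts of MYC and PANC-1 siCtrl cells 222 ± 3.27, a 2.69-fold difference.

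Among 12 tested partners and antagonists of MYC, 3 rose and 3 fell in siQKI and 2 rose and 2 fell in siRBFOX2 cells, beside 33.0% and 26.5% of all genes. MXD1, which competes with MYC for its partner MAX, had 9633, 9093 and 9473 normalized counts in siCtrl, 4115, 4012 and 4605 in siQKI and 4149, 4406 and 3925 in siRBFOX2 libraries, changes of -1.15 and -1.18 on the log2 scale (adjusted p = 6.84e-09 and 1.30e-08). MXD4, of the same family, rose by 0.50 and 0.62. Established MYC targets fell more often than they rose. Of 16, 9 fell and 3 rose in siQKI cells and 7 fell and 3 rose in siRBFOX2 cells, where 18.1% and 14.5% of all genes fell. CDK4, a cyclin-dependent kinase, fell by 0.51 and 0.42, and RRS1, a ribosome assembly factor, rose by 0.53 and 0.61. In HPAF-II cells, with their higher MYC level, 2 of the 16 targets were at least 2-fold higher and 3 lower. Of all genes compared, 26.1% were higher and 27.1% lower by that much. FBL, which encodes the nucleolar methyltransferase fibrillarin, had the largest difference of the targets above 0 in both lines (log2 ratio -3.96). CCND2, also counted as lower, was at 0 in HPAF-II cells, so no ratio is given for it.

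**Figure D2:**
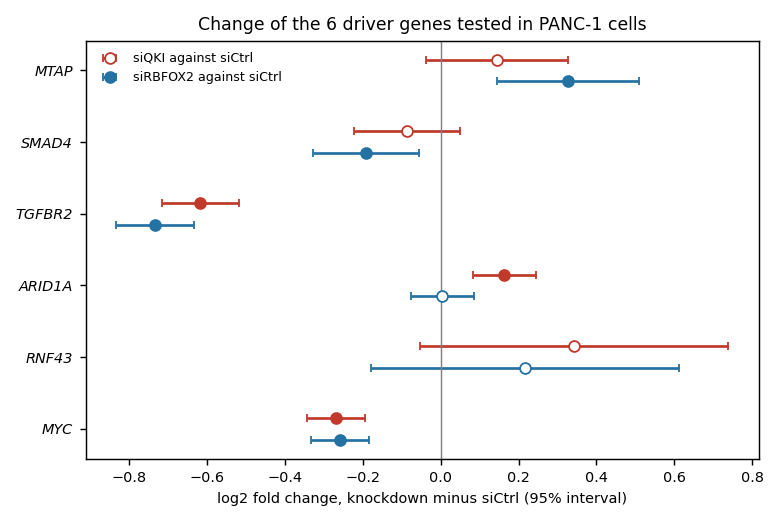
Log2 fold change (x axis, knockdown minus siCtrl, with 95% intervals) of the 6 members tested in PANC-1 cells, siQKI in red and siRBFOX2 in blue, filled where the adjusted p was under 0.05. TGFBR2 and MYC fell in both knockdowns, ARID1A passed in siQKI cells, and MTAP and SMAD4 in siRBFOX2 cells.

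In all, 6 of the 8 genes reached the minimum of 10 normalized counts for the test. In siQKI cells 1 rose (ARID1A) and 2 fell (TGFBR2 and MYC), that is 3 of 6, beside 33.0% of the 22544 genes tested (14.9% higher and 18.1% lower). The siQKI and siCtrl libraries did not overlap for these 3, beside 44.7% of all genes. In siRBFOX2 cells 1 rose (MTAP) and 3 fell (SMAD4, TGFBR2 and MYC), 4 of 6 beside 26.5% (12.0% higher and 14.5% lower). These 4 also had no overlap with siCtrl, beside 37.9%. Between the knockdowns 1 of 6 differed (ARID1A, higher in siQKI cells), beside 21.5% (9.93% higher and 11.6% lower), and 3 did not overlap (SMAD4, TGFBR2 and ARID1A), beside 35.2%. In siQKI cells 45.2% of the called genes were higher, and 58.0% when libraries were rescaled by their upper quartile, while all 6 members kept their direction there. Between the lines, 6 of 8 differed at least 2-fold, all higher in HPAF-II cells, beside 53.2% of 24673 genes (26.1% higher and 27.1% lower). The libraries of all 8 did not overlap, beside 63.7%. CDKN2A and CDKN2B are among the 6 and, absent from PANC-1 cells, reached the minimum only through HPAF-II cells. Their 2-fold calls and lack of overlap therefore restate that absence.

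**Figure D3:**
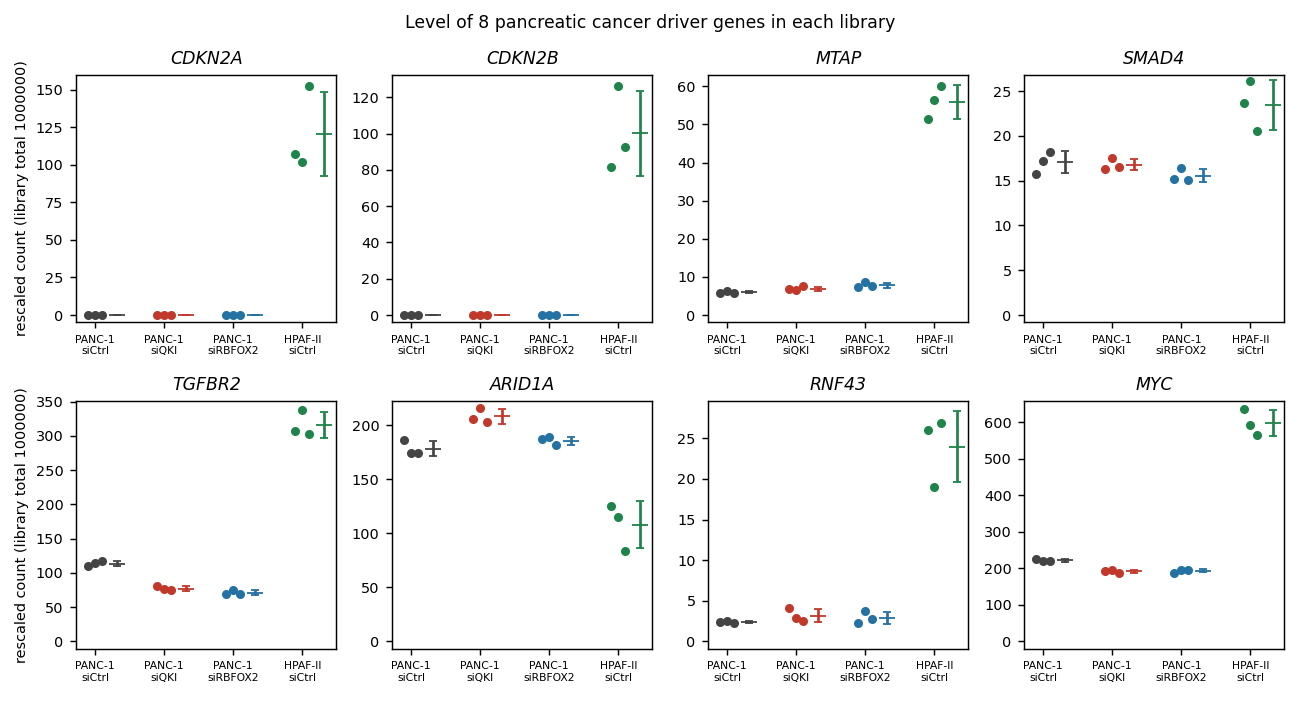
Rescaled count (y axis, library total of 1000000) of the 8 genes in each of 12 libraries, as points, with mean ± SD beside them (n = 3 per group). CDKN2A and CDKN2B are at 0 in all 9 PANC-1 libraries, 7 genes are higher in HPAF-II cells and ARID1A is lower.

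Genes of the p16 and RB axis were expressed in PANC-1 cells. Of 17 tested, 4 rose, 7 fell and 6 did not pass in siQKI cells, and 3 rose, 7 fell and 7 did not pass in siRBFOX2 cells, beside 33.0% and 26.5% of all genes that passed. CDK6, a kinase that p16 inhibits, had 18462, 16653 and 18881 normalized counts in siCtrl, 10288, 10849 and 12424 in siQKI and 7646, 8392 and 7854 in siRBFOX2 libraries. These are log2 fold changes of -0.69 and -1.18 (adjusted p = 1.94e-06 and 1.90e-08). CCND1, encoding cyclin D1, the activator of CDK4 and CDK6, fell by 0.55 in siQKI and by 1.04 in siRBFOX2 cells (adjusted p = 7.57e-08 and 1.89e-10). RBL1, encoding the RB relative p107, fell by 1.21 in siQKI and by 0.16 in siRBFOX2 cells (adjusted p = 1.01e-09 and 0.0475). CDKN2C, encoding the related inhibitor p18, rose by 0.39 in siQKI and by 0.17 in siRBFOX2 cells. CDKN2C had a lower level in HPAF-II cells (log2 ratio -2.12). CDK6 and MDM2 were higher in HPAF-II cells (1.42 and 1.14).

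Among 16 genes of methionine and polyamine metabolism and other genes linked to MTAP, 2 rose and 9 fell in siQKI cells. In siRBFOX2 cells 2 rose, 5 fell and 9 did not pass. Over all genes, 18.1% and 14.5% fell. ENOPH1, which acts in the methionine salvage pathway after MTAP, fell by 0.56 and 0.42. MAT2A, which makes S-adenosylmethionine, rose from 96304, 97984 and 94091 to 118108, 119001 and 117730 normalized counts in siQKI and to 140041, 142667 and 134616 in siRBFOX2 cells, log2 fold changes of 0.30 and 0.53 (adjusted p = 9.52e-06 and 6.54e-08). Between the lines, PRMT5, a methyltransferase inhibited by methylthioadenosine, was higher in HPAF-II cells by a log2 ratio of 1.05.

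**Figure D4:**
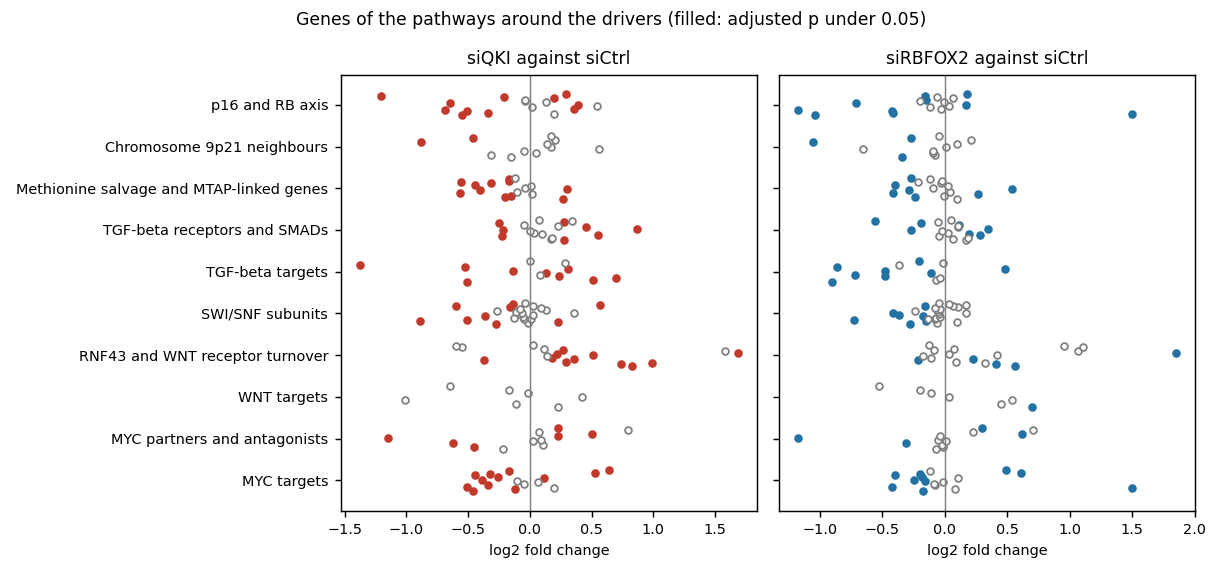
Log2 fold change (x axis) of each tested gene in 10 lists around the members (y axis), for siQKI on the left and siRBFOX2 on the right, filled where the adjusted p was under 0.05. Genes of WNT receptor turnover lie mostly to the right of 0 in siQKI cells, and MYC targets mostly to the left in both.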

How the data were processed

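The deposited values are signal, whole-number gene counts divided by 1 DESeq2 size factor per library by the authors, after alignment with STAR 2.7.5a to hg38 and counting on FAST DB loci, per the labels and the study's methods. All values were whole multiples of 1 step (tolerance 0.01), and a step cannot be 1 fragment, since 82.1% to 84.8% of low values (up to 30 steps) divided by 3. Knockdowns were compared with limma 3.58.1 (R 4.3.3) on log2(normalized count + 1), with a mean-variance trend, over 22544 loci with a mean of at least 10 in the 9 PANC-1 libraries, Benjamini-Hochberg adjusted p under 0.05. The fit was tested on simulated data. Lines were compared by the difference of mean log2(rescaled count + 0.01) and called at 2-fold. This ratio was first computed from mean values and exchanged, after both counts were seen, for the form used in an earlier analysis of these data. The members, pathway lists and named genes (in each list and knockdown, the 2 largest called rises and falls among genes averaging 50 or more, and the 2 largest ratios each way between lines) were chosen with earlier results of these data known. The values of 1 gene that this rule names are not reported here, and it stays in the counts of its list. Fold changes on this scale understate those of low genes. Ratios between the lines depend on the added 0.01 where 1 line is near 0. Replicate numbers did not pair the samples (correlation of deviations -0.0325 to 0.0235 for same-numbered libraries).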

Additional observations from a re-analysis of the deposited data

How the results depend on the processing

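Over 17 alternatives for each knockdown comparison, the calls of TGFBR2 and MYC in both knockdowns, of ARID1A in siQKI cells and of MTAP in siRBFOX2 cells kept their direction and their side of the threshold. Between the knockdowns, the count of members past the threshold was 2 with upper quartile rescaling, where TGFBR2 passed (adjusted p = 0.0278), and 0 without the mean-variance trend, where ARID1A had an adjusted p of 0.0549. Upper quartile rescaling also moved the 9p21 neighbours called in siQKI cells to 4 and those between the knockdowns to 0, and turned the MYC difference between the knockdowns to 0.019. Leaving out 1 library at a time moved ARID1A in siRBFOX2 cells from -0.012 to 0.025, and the differences between the knockdowns of RNF43 from -0.085 to 0.31 and of MYC from -0.025 to 0.0076. None of these 3 values passed the test in any of those fits. Without the mean-variance trend, the adjusted p was 0.0813 and 0.0759 for LGR5 in siQKI and siRBFOX2 cells, and 0.105 for AXIN2 and 0.0784 for SMAD6 in siRBFOX2 cells. A pseudocount of 1 lowered the genes at least 2-fold apart between the lines to 5432, with 6 members among them, and ratios of mean values, an alternative added after seeing the data, gave 12923 and 6. Deposited values without rescaling gave 14144 genes, 40.3% of them higher in HPAF-II cells, and 7 members. ARID1A then had a log2 ratio of -1.02. With the replicate block, 7336, 5891 and 4758 genes were called in siQKI, siRBFOX2 and between them, and 3, 4 and 1 members; it changed no call of a member. The planned edgeR test was not run because the steps could not be read as fragments. Other causes were not tested, and depth in fragments is unknown.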

Other observations

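Over the 9 PANC-1 libraries, the genes whose levels followed a member most closely were given by Pearson's r on log2 values, as a description, since the libraries share 3 groups. They were taken from 17878 loci with a mean of at least 50, passing over loci without a symbol. For TGFBR2 they were RNF182 (0.994) and NME7 (0.992), and for MYC they were BCL10 (0.994) and MLPH (0.991). For ARID1A they were CCDC134 (0.980) and CAP2 (0.965), for SMAD4 SDCBP2 (0.972) and ERCC3 (0.952), and for MTAP JRK (0.960) and SNX29 (0.959). RNF43 had the lowest such values, 0.912 for ZNF221 and 0.909 for LOC101929234.

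In HPAF-II cells, CCND2, encoding cyclin D2, was listed at 0 in all 3 libraries, while PANC-1 siCtrl libraries had 135, 157 and 130 normalized counts. It rose in siRBFOX2 cells to 484, 278 and 468 (2.83-fold on the log2 scale of the fit, limma adjusted p = 9.15e-04), unlike CCND1, which fell there.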
